A study of Triticum aestivum with 4 samples.

Results

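Leaf and root of drought-stressed wheat were compared through the reads of 2 cDNA libraries, 1 from leaves and 1 from roots, of 4 libraries sequenced in all. The plants were bread wheat (Triticum aestivum) of the cultivar MGS1 Alianca, grown in pots in a glasshouse, and were harvested at tillering, 5 weeks old. Stress was imposed by keeping the soil at 75% of its field capacity during 2 weeks, after which watering was stopped for 3 weeks, and the watered plants behind the other pair of libraries stayed at 100%. The RNA of each library was pooled from 3 plants of a single pot, so that every value below comes from 1 pool without a replicate, and p-values and intervals measure the counting of reads and not the spread between plants or pots. The reads came from Roche pyrosequencing, and the leaf and root reads had been assembled separately, each assembly holding the watered and the stressed library of its organ. Leaf and root transcripts therefore had no shared identifier, and they were joined here through the Arabidopsis protein that each matched best. Arabidopsis symbols below name the best match of a wheat transcript, and 1 such gene can stand for several wheat genes.

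The genes compared were all Arabidopsis best hits (E-value at most 0.001) with at least 1 read in either drought library. They numbered 9658 of the 10707 best hits found in the assemblies of the whole series. The leaf library had reads of 6324 of these genes and the root library reads of 8121, and 4787 genes were read in both. A further 1537 genes had leaf reads only, and 3334 had root reads only. For each gene, reads were taken from 1 assembled transcript (isotig) of each group of related isotigs (isogroup) and summed. They were scaled to the total of these gene reads, which was 62623 in leaf and 95919 in root. An isogroup whose isotigs matched several genes gave 1 isotig to each, so reads shared by those isotigs could count more than once. A fold change is the ratio of these scaled reads with its exact binomial 95% interval, and where 1 organ had no read a lower bound against 3 reads is given instead.

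A leaf and a root of the same plant meet drought with different tasks. The leaf fixes carbon, loses water through its stomata, and has to dispose of absorbed light when carbon dioxide runs short. The root takes up water and ions, grows on sugars delivered by the phloem, and is the first organ in contact with dry soil. Both organs can make abscisic acid, the hormone that closes stomata, and both can accumulate compatible solutes such as proline and raffinose sugars and the hydrophilic LEA proteins that shield membranes and enzymes in dehydrated cells.

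The identity of the organs was checked first with marker genes. Leaf markers followed the label, while root markers in sum did so only without 1 best hit. The leaf markers were mostly nuclear antenna, photosystem, Rubisco and Calvin cycle genes. Many of them recur in the light reaction and carbon fixation lists below, so those lists are not independent of this check. In drought, 33 of 40 leaf markers were called higher in leaf, and 32 of the 40 had no root read. Their summed reads were 3689 in leaf and 33 in root (171-fold, 95% interval 122 to 249). Of 29 root markers (ion uptake, root hair, endodermis and auxin transport genes), 21 had a read in either drought library, and only PHT1;4, a phosphate transporter, was called higher in root. The best hit PRX52 (AT5G05340, a class III peroxidase) was called higher in leaf, with 110 reads in leaf and 7 in root, through leaf isotigs aligned over 24.8% of the protein. Summed over all root markers, the stressed plants had 165 reads in leaf and 153 in root, 1.65-fold higher in leaf (95% interval 1.32 to 2.07), against the direction of their label. In watered plants this sum was 188 reads in leaf and 901 in root, 3.68-fold higher in root. Without PRX52, left out after its values were seen, the sums were 55 reads in leaf and 146 in root in drought, 1.73-fold higher in root (95% interval 1.26 to 2.41), and 75 and 731 in watered plants, 7.49-fold higher in root. The part of the low root markers in the results below was not tested. Of the 29 root markers, 20 had no read in the stressed leaf and 10 had none in the stressed root. The root markers with no read in the stressed root included NAS4, NRT2.5, NRT2:1, PHT1;3, PHT1;8, RHD6, SCR and TIP2;3. Of these named genes, all but NAS4 also had no read in the stressed leaf. Isogroups resembling ribosomal RNA held 46.9% of the isogroup reads of the leaf and 37.6% of those of the root library, and the gene reads above made up 34.2% and 48.1%. Chloroplast-encoded transcripts, which the best hits in Arabidopsis do not cover, held 10476 reads in leaf (5.72% of its isogroup reads) and 1 in root.

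Between the organs of the stressed plants, 589 genes were called higher in leaf (6.1% of the 9658 genes) and 507 higher in root (5.25%) by the MARS model of DEGseq, which compares the log2 ratio of 2 libraries with that expected from counting noise at the same level, at an unadjusted two-sided p under 0.001. Among the 3958 genes with at least 10 reads, which hold every call, these were 14.9% and 12.8%. The median log2 ratio of leaf to root over those genes was -0.26. Scaling by all isogroup reads instead of the gene reads moved that median by a further -0.49 and gave 442 genes higher in leaf and 806 in root, so the split of calls rested on which reads formed the total. Allowing for transcript length gave 602 and 329 with a shift of 0.39 in the opposite direction. Summing all isotigs instead of 1 per isogroup and gene gave 816 and 1008 with a shift of -0.36. Taking 1 isotig per isogroup over all genes gave 579 and 482. Of the genes called higher in leaf, 271 had no root drought read, and 235 of these had no isotig in the root assembly. Of the genes called higher in root, 182 had no leaf drought read, and 157 had no isotig in the leaf assembly. Single reads left out of the assemblies matched 95 of the 271 genes in root and 65 of the 182 in leaf, with more than 3 such reads for 4 and 1 genes. The match covered less than 50% of the Arabidopsis protein for 150 of the leaf-higher and 146 of the root-higher genes. Of the 137 called genes chosen by rule for naming, this held for 45 in the organ where they were higher. For 19 of those it was under 30%, which leaves the name uncertain, and these were ARK3, P5CS2, AT4G36600, ATG18G, AT1G56720, ABI1, PCNA2, CFIM-25, COL1, PRX52, DI21, TTN8, ERD10, KCS2, CSLD2, SOS1, LOX3, AT4G21020 and NIR1.

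**Figure D1:**
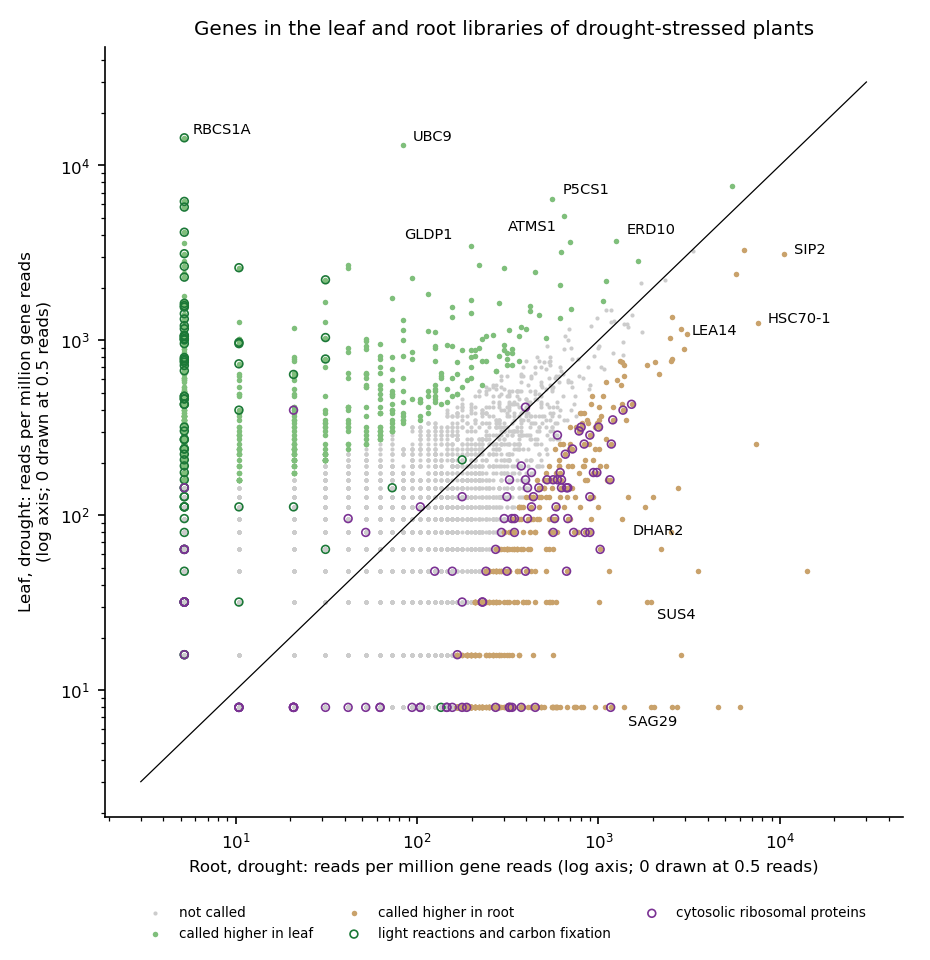
Reads of each gene in the leaf (y axis) and root (x axis) of drought-stressed plants, per 1000000 gene reads on log axes, with 1 point per Arabidopsis best hit and coloured points for the 589 genes called higher in leaf and the 507 called higher in root. Rubisco and antenna genes lie on the left edge with no root read, and SIP2 and HSC70-1 lie among the genes read in both organs that were higher in root, while ribosomal protein genes are ringed and a count of 0 is drawn at 0.5 reads.

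Genes of the light reactions were the leaf group with most calls. Of 61 nuclear genes of the photosystems, their antennae, electron transfer and the chloroplast ATP synthase with a read, 40 were called higher in leaf and 0 higher in root. Their summed reads were 2710 reads in leaf and 29 in root, 143-fold (95% interval 99.4 to 214) higher in leaf, with a median log2 ratio of 6.01 among members with at least 10 reads. In bulk tissue, fewer chloroplast-bearing cells and less RNA per cell cannot be told apart. The antenna protein LHB1B2 (AT2G34420), which binds chlorophyll of photosystem II, had 390 reads in leaf and 0 in root, at least 199-fold higher in leaf, and a second antenna gene, LHCB2.1 (AT2G05100), had 260 against 0, where leaf reads stand first in every such pair. The photosystem II subunit PSBR (AT1G79040) had 166 reads in leaf and 0 in root, and the oxygen-evolving subunit PSBO2 (AT3G50820) had 144 against 0. NPQ4, the sensor protein of heat dissipation in the antenna, had 139 reads in leaf and 3 in root, 71.0-fold (95% interval 23.8 to 348) higher in leaf. Thus every called member stood in leaf, most of them with an empty root library.

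Carbon fixation genes were likewise called in leaf. Of 19 genes, 13 were called higher in leaf and 0 higher in root, with 2173 reads in leaf and 32 in root in sum, 104-fold (95% interval 73.5 to 152) higher in leaf. The Rubisco small subunit RBCS1A (AT1G67090) was the nuclear gene with most leaf reads, at 901 reads in leaf and 0 in root, at least 460.0-fold higher in leaf. Rubisco activase, RCA (AT2G39730), which frees the active site of inhibitory sugars, had 362 reads in leaf and 0 in root, at least 185-fold higher. The chloroplast aldolase FBA2 (AT4G38970) had 196 against 0 reads, the glyceraldehyde-3-phosphate dehydrogenase GAPA-2 102 against 0, and phosphoribulokinase (PRK) 73 against 0. Carbonic anhydrase CA2 (AT5G14740), which interconverts carbon dioxide and bicarbonate, had 163 reads in leaf and 1 in root, 249.7-fold (95% interval 44.2 to 9921) higher in leaf. All 6 of these genes had more reads in watered than in stressed leaf, where RBCS1A had 6764 reads, RCA 1822 and CA2 1486.

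Photorespiration is the salvage of the product that Rubisco forms with oxygen. Of 11 genes, 8 were called higher in leaf, 1 higher in root and 2 in neither. Among the leaf calls was AOAT2 (AT1G70580), an aminotransferase, with 168 reads in leaf and 4 in root, 64.3-fold (95% interval 24.7 to 239) higher in leaf. The glycine decarboxylase P-protein GLDP1 (AT4G33010) had 218 reads in leaf and 19 in root and was called higher in leaf, and the glycolate oxidase AT3G14415 had 101 against 0. The root call was a catalase. The best hit CAT2 (AT4G35090), the peroxisomal catalase of photorespiration in Arabidopsis leaves, had 40 reads in leaf and 206 in root, 3.36-fold (95% interval 2.39 to 4.84) higher in root, while another catalase, CAT1 (AT1G20630), had 11 reads in leaf and 0 in root. Reads of all catalases came to 51 reads in leaf and 206 in root, 2.64-fold (95% interval 1.93 to 3.66) higher in root. Reads of CAT2 in watered plants were 103 in leaf and 98 in root.

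Chlorophyll synthesis held 10 genes called higher in leaf and 0 in root of 21, with 329 reads in leaf and 40 in root, 12.6-fold (95% interval 9.06 to 18.0) higher in leaf. The magnesium chelatase subunit GUN5 (AT5G13630) had 72 reads in leaf and 8 in root, 13.8-fold (95% interval 6.63 to 33.1) higher in leaf, and the cyclase CRD1 (AT3G56940) had 45 against 0. HEMA1 (AT1G58290), the glutamyl-tRNA reductase that starts the pathway, had 55 reads in leaf and 17 in root, 4.96-fold (95% interval 2.83 to 9.11) higher in leaf. The protochlorophyllide reductase hits PORA and PORB had 15 against 0 reads each.

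Other genes called higher in leaf included proteases, lipoxygenases and a lipid transfer protein. The best hit UBC9 (AT4G27960), a ubiquitin-conjugating enzyme, had 817 reads in leaf and 8 in root, 156-fold (95% interval 79.0 to 364) higher in leaf. The plastid chaperone CLPC1 (AT5G50920), which feeds proteins to the Clp protease, had 322 reads in leaf and 62 in root, 7.95-fold (95% interval 6.05 to 10.6) higher, and FTSH1 (AT1G50250), a thylakoid protease that removes damaged photosystem II protein, had 163 reads in leaf and 4 in root, 62.4-fold (95% interval 23.9 to 232) higher. Of 25 jasmonate and lipoxygenase genes, 4 were called higher in leaf and 0 in root (16% in all, beside 11.3% over all genes). The plastid lipoxygenase LOX2 (AT3G45140), which makes the precursor of jasmonate, had 226 reads in leaf and 0 in root, at least 115-fold higher. LOX3 (AT1G17420) had 104 against 3 reads and LOX5 (AT3G22400) 130 against 59, and all lipoxygenases together had 479 reads in leaf and 96 in root, 7.64-fold (95% interval 6.13 to 9.62) higher in leaf. Cuticle and wax genes gave 4 leaf calls and 0 root calls of 28 (14.3% in all, beside 11.3% over all genes). They were led by the lipid transfer protein LTP4 (AT5G59310) with 177 reads in leaf and 0 in root, at least 90.4-fold higher in leaf. LTP4 alone made up most of the 296 leaf reads and none of the 88 root reads of that list. A wax-forming condensing enzyme, KCS2 (AT1G04220), had 14 against 3 reads and the wax exporter ABCG11 (AT1G17840) had 12 against 0.

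In root, cytosolic ribosomal proteins had the most calls of the lists. Of 101 with a read, 55 were called higher in root and 1 in leaf, with 641 reads in leaf and 3877 in root, 3.95-fold (95% interval 3.63 to 4.30) higher in root, and a median log2 ratio of -2.10. The S8 protein AT5G20290 had 0 reads in leaf and 112 in root, at least 24.4-fold higher in root. An L7 protein, AT3G13580, had 4 reads in leaf and 98 in root, and the ribosomal hit AT5G39850 had 10 against 111. The exception, AT5G59240, is another copy of the S8 protein and had 25 reads in leaf and 2 in root, so that leaf and root reads of the S8 protein were divided between near-identical hits. Watered plants had 270 in leaf and 2777 in root for the list, 7.90-fold (95% interval 6.97 to 8.98) higher in root, or 4.83-fold with TMM factors of the 4 libraries (an alternative scaling by a trimmed mean of ratios).

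Chaperones were also called mostly in root. Of 47 heat shock proteins and chaperones, 11 were called higher in root and 2 in leaf, with 555 reads in leaf and 1790 in root, 2.11-fold (95% interval 1.91 to 2.32) higher in root. The cytosolic chaperone HSC70-1 (AT5G02500) supplied much of this, with 79 reads in leaf and 724 in root, 5.98-fold (95% interval 4.74 to 7.65) higher in root, and watered plants had 63 in leaf and 643 in root. A cytosolic HSP90, HSP81-3 (AT5G56010), had 0 reads in leaf and 70 in root, and the co-chaperone J2 (AT5G22060) had 0 against 56. HSP81-2, HSP81-3 and HSP90.1, the cytosolic HSP90 hits, together had 47 reads in leaf and 225 in root, 3.13-fold (95% interval 2.27 to 4.38) higher in root. The disaggregase HSP101 had 4 against 49 reads. Both leaf calls were plastid chaperones, cpHsc70-1 (AT4G24280) with 98 reads in leaf and 40 in root and CPN60B (AT1G55490) with 32 against 11.

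Among single genes, EULS3 (AT2G39050), a lectin of the Euonymus type whose root isotigs aligned over 46.9% of the protein, had 205 reads in leaf and 609 in root, 1.94-fold (95% interval 1.65 to 2.28) higher in root, and AT5G05960, of the lipid transfer protein superfamily, had 3 reads in leaf and 339 in root, 73.8-fold (95% interval 25.0 to 359.5) higher in root. An AWPM-19-like membrane protein hit, AT1G04560, had 0 reads in leaf and 194 in root and none in either watered organ, at least 42.2-fold higher in root. The sugar transporter SAG29 (AT5G13170), also named SWEET15, had 0 reads in leaf and 133 in root and was also absent from both watered libraries, at least 28.9-fold higher in root. AT4G31290, a ChaC-like protein of glutathione turnover whose root isotigs aligned over 43.8% of the protein, had 4 reads in leaf and 213 in root. It was 34.8-fold (95% interval 13.4 to 129) higher in root. The proteasome subunit PAF1 (AT5G42790) had 1 against 274, with isotig lengths of 1088 bases in leaf and 4536 in root. Several other large root values had matches that left the gene uncertain. The root isotigs behind GUN1 (16 against 706 reads), PCNA2 (0 against 578), AHL20 (0 against 439) and AT5G41040 (no leaf read) lay in isogroups resembling ribosomal RNA. The root isotigs of AT1G56720 (3 against 1357), a kinase hit, aligned over 19.3% of the protein, those of CFIM-25 (9 against 263) over 23.5%, of TTN8 (5 against 242) over 26%, of PNG1 (0 against 260) over 33.7%, of ARK3 (0 against 188) over 5.71% and of NAC100 (2 against 187) over 39.4%. No role is given for these hits.

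Genes of proline synthesis were read mostly in leaf. The best hit P5CS1 (AT2G39800), delta-1-pyrroline-5-carboxylate synthetase, the rate-limiting enzyme of proline synthesis, had 405 reads in leaf and 53 in root, 11.7-fold (95% interval 8.77 to 15.9) higher in leaf. The hit P5CS2 (AT3G55610) had 23 reads in leaf and 0 in root, at least 11.7-fold higher in leaf, from leaf isotigs aligned over 11.4% of the protein, and its call was lost with only the isotig of most reads. In watered plants the reads of both hits together were 1 in leaf and 5 in root. Ornithine aminotransferase (DELTA-OAT), an alternative route to proline, had 17 reads in leaf and 29 in root, and ALDH12A1, which degrades proline further to glutamate, had 13 against 46, and neither passed the test.

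LEA proteins were not a group of 1 organ. Of 21 with a read, 4 were called higher in leaf and 7 in root, and the median log2 ratio was -0.17. The summed reads were 778 reads in leaf and 1309 in root, after scaling 1.10-fold (95% interval 1.00 to 1.20) higher in root. The dehydrin ERD10 (AT1G20450), which binds membranes in dehydrated cells, had 233 reads in leaf and 120 in root, 2.97-fold (95% interval 2.38 to 3.74) higher in leaf, from isotigs aligned over 26.1% of the protein in leaf. Another LEA protein, AT3G17520, had 59 reads in leaf and 0 in root, at least 30.1-fold higher in leaf. On the root side, LEA14 (AT1G01470) had 73 reads in leaf and 275 in root, 2.46-fold (95% interval 1.89 to 3.23) higher in root, and DI21 (AT4G15910) had 7 reads in leaf and 95 in root, 8.86-fold (95% interval 4.14 to 22.6) higher. The LEA hit AT4G36600, aligned over 13.7% of the protein, had 0 reads in leaf and 72 in root, at least 15.7-fold higher in root, AT3G22490 had 26 against 116, and LTI65 (RD29B), an abscisic acid marker in Arabidopsis, had 12 against 65. The member with most reads, AT3G15670, had 204 reads in leaf and 320 in root and did not pass the test. In watered plants AT4G36600 and LTI65 had no read, and LEA14 had 2 in leaf and 0 in root. Calls in opposite directions thus stood within the same list, several of them on short matches.

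**Figure D2:**
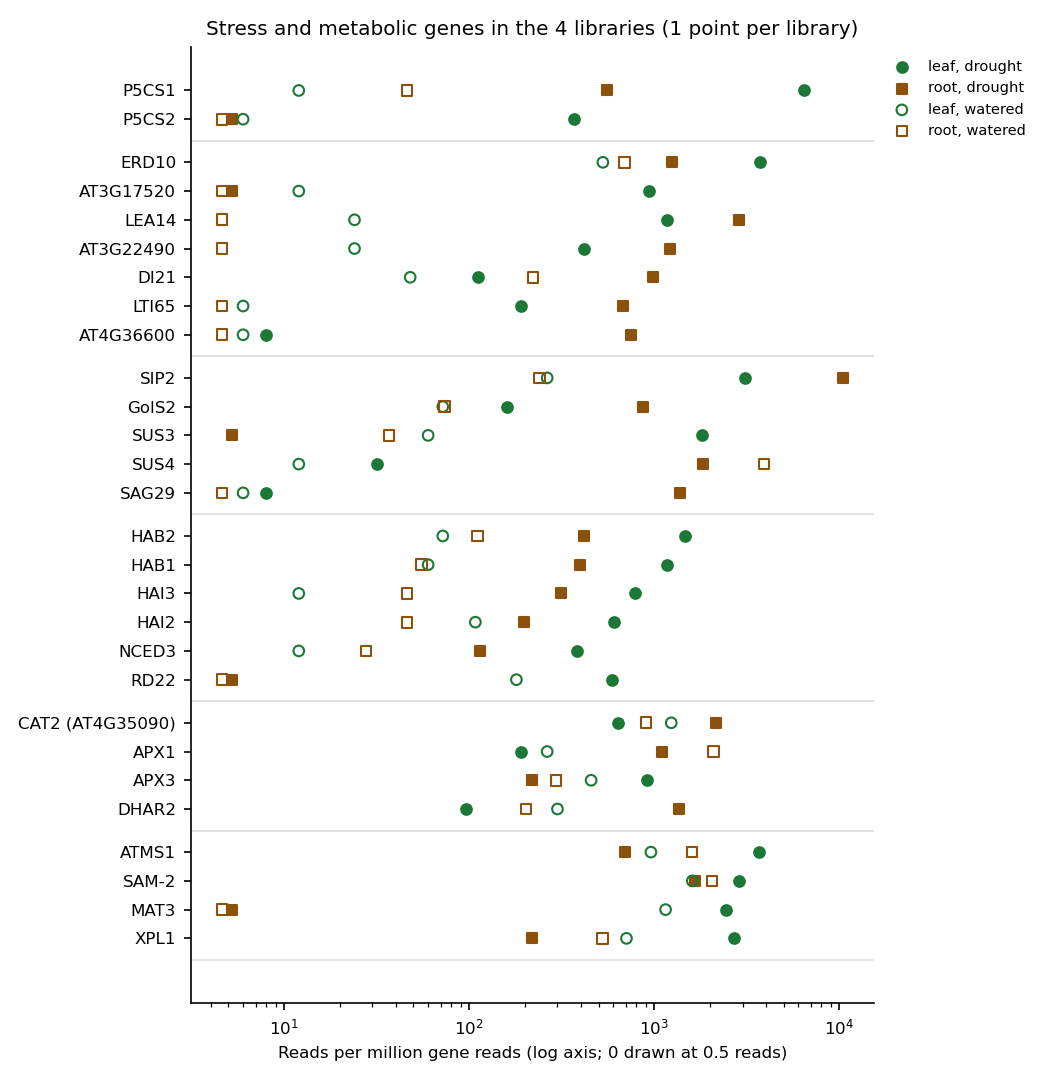
Reads per 1000000 gene reads (log axis) of drought protection genes in the leaf and root libraries of drought-stressed plants, with filled points, and of watered plants, with open points. P5CS1 and ERD10 lie higher in stressed leaf, and SIP2, LEA14 and DHAR2 higher in stressed root, with 1 library behind each point and no error bar.

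Raffinose genes were read mostly in root. Of 17 raffinose and trehalose genes, 3 were called higher in root and 1 in leaf (23.5% in all, beside 11.3% over all genes). The summed reads of the list were 2.88-fold (95% interval 2.53 to 3.29) higher in root. The hit SIP2 (AT3G57520), of the raffinose synthase and alkaline alpha-galactosidase family, held most of these reads, with 194 reads in leaf and 1006 in root, 3.39-fold (95% interval 2.90 to 3.97) higher in root, and 22 in leaf and 26 in root in watered plants. Galactinol synthase GolS2 (AT1G56600), which commits sugar to raffinose synthesis, had 10 reads in leaf and 83 in root, 5.42-fold higher in root, and all galactinol synthases had 26 reads in leaf and 143 in root, 3.59-fold (95% interval 2.35 to 5.68) higher in root. In the trehalose branch the organs held different genes, the phosphatase TPPG (AT4G22590) with 20 against 0 and the synthase-like TPS11 (AT2G18700) with 1 against 28 reads.

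Sucrose and starch genes gave 9 leaf calls and 3 root calls of 53 (22.6% in all, beside 11.3% over all genes). Sucrose synthase, which splits sucrose for use in sink tissue, was represented by opposite hits. SUS3 (AT4G02280) had 113 reads in leaf and 0 in root, at least 57.7-fold higher in leaf, with 6 unassembled root reads and leaf isotigs aligned over 37.2% of the protein, and SUS4 (AT3G43190) had 2 reads in leaf and 177 in root, 57.8-fold (95% interval 15.8 to 481) higher in root. The family sum was 164 reads in leaf and 250 in root, a leaf to root ratio of 1.00 (95% interval 0.820 to 1.23), so the interval of the whole family, which was summed after its members had been seen, included 1. The vacuolar invertase hit ATBETAFRUCT4 (AT1G12240) had 37 reads in leaf and 2 in root, 28.3-fold (95% interval 7.31 to 243) higher in leaf, and a SWEET-type transporter, MTN3, had 43 reads in leaf and 0 in root. Sucrose phosphate synthase SPS1F (AT5G20280), the enzyme that makes sucrose, had 16 reads in leaf and 67 in root, 2.73-fold (95% interval 1.57 to 5.05) higher in root.

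Genes of the abscisic acid pathway were read more in leaf. Of 36 genes, 11 were called higher in leaf and 1 in root, with 602 reads in leaf and 428 in root, 2.15-fold (95% interval 1.90 to 2.44) higher in leaf. In watered plants the sum was 226 in leaf and 452 in root, 1.54-fold (95% interval 1.31 to 1.81) higher in root, but with TMM factors of the 4 libraries that ratio of leaf to root was 1.06 (95% interval 0.903 to 1.25), so the watered direction rested on the scaling. For hormone synthesis, the zeaxanthin epoxidase ABA1 (AT5G67030) had 40 reads in leaf and 5 in root, 12.3-fold (95% interval 4.84 to 39.8) higher in leaf, and NCED3 (AT3G14440), the cleavage enzyme that limits abscisic acid synthesis in drought, had 24 reads in leaf and 11 in root, 3.34-fold (95% interval 1.58 to 7.56) higher in leaf. Among clade A protein phosphatases, which repress the signal and are induced by it, HAB2 (AT1G17550) had 92 reads in leaf and 40 in root, 3.52-fold (95% interval 2.41 to 5.24) higher in leaf, HAB1 had 73 against 38, HAI1 17 against 0, HAI2 38 against 19 and HAI3 49 against 30. The phosphatase ABI1 (AT4G26080) was the root call, with 0 reads in leaf and 18 in root, on isotigs aligned over 21.4% of the protein, and was lost at E-values of at most 1e-20, under Benjamini-Hochberg adjustment and with only the isotig of most reads. Of the SnRK2 kinases, SNRK2.4, which osmotic stress activates, had 53 against 30 reads and was called higher in leaf, while OST1, the abscisic acid-activated kinase of guard cells in Arabidopsis, had 22 reads in leaf and 62 in root and did not pass the test. RD22 (AT5G25610), an abscisic acid-induced gene, had 37 reads in leaf and 0 in root, at least 18.9-fold higher in leaf. The phosphatases share domains, and the best hit of a wheat copy may differ between the assemblies, which was not tested.

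Antioxidant enzymes were called in both organs. Of 19 genes, 6 were called higher in leaf and 4 in root. Cytosolic ascorbate peroxidase APX1 (AT1G07890), which reduces hydrogen peroxide with ascorbate, had 12 reads in leaf and 106 in root, 5.77-fold (95% interval 3.17 to 11.5) higher in root. DHAR2 (AT1G75270), which regenerates ascorbate, had 6 reads in leaf and 130 in root, 14.1-fold (95% interval 6.33 to 39.3) higher in root, and the cytosolic superoxide dismutase CSD1 had 15 against 55. The plastid peroxiredoxins PRXQ (AT3G26060) and 2-Cys Prx B (AT5G06290) had 20 against 1 and 21 against 3 reads and were called higher in leaf, as was APX3 (AT4G35000), a peroxisomal ascorbate peroxidase, with 57 against 21. Summed in the same way, all ascorbate peroxidases had 85 reads in leaf and 127 in root, a leaf to root ratio of 1.03 (95% interval 0.770 to 1.36). Glutathione transferases gave 1 leaf call and 2 root calls of 17 (5.88% and 11.8%, beside 6.1% and 5.25% over all genes). The leaf call was GSTF3 (AT2G02930) with 25 against 0, and of the root calls ERD9 (AT1G10370) had 22 reads in leaf and 96 in root.

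Water channels, the pores through which water crosses membranes, gave 0 leaf calls and 2 root calls of 18 (11.1% in all, beside 11.3% over all genes). The list was thus called in either organ about as often as other genes. The plasma membrane aquaporin PIP2A (AT3G53420) had 0 reads in leaf and 36 in root, at least 7.83-fold higher in root, and PIP2;8 (AT2G16850) had 0 against 19. The sum over the list was 128 reads in leaf and 258 in root, 1.32-fold (95% interval 1.06 to 1.64) higher in root. In watered plants it was 164 in leaf and 2034 in root, 9.53-fold (95% interval 8.12 to 11.2) higher in root, where PIP2A alone had 417 root reads. PIP1;5 (AT4G23400) had 44 reads in leaf and 84 in root in drought and 45 in leaf and 493 in root in watered plants. The 95% intervals of the drought and watered ratios of the list did not overlap, and with TMM factors the ratios were 1.32-fold and 5.83-fold higher in root. The drought ratio is about as large as the shift that a transcript length offset gives over all genes.

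Ion carriers gave 3 leaf and 4 root calls of 60 (5.00% and 6.67%, beside 6.1% and 5.25% over all genes), so the list as a whole was called about as often as other genes. Higher in root were PHO1 (AT3G23430), which loads phosphate into the xylem, with 0 reads in leaf and 57 in root, at least 12.4-fold higher, PHT1;4 (AT2G38940) with 3 against 28, the zinc pump HMA2 (AT4G30110) with 1 against 29, and the sodium exporter SOS1 (AT2G01980) with 2 against 26. The leaf calls were organellar phosphate carriers, PHT4;1 (AT2G29650) with 34 against 0, PHT4;5 (AT5G20380) with 13 against 0 and PHT3;1 (AT5G14040) with 26 against 2. Nitrogen genes gave 5 leaf calls and 1 root call of 21. Plastid glutamate synthase GLU1 (AT5G04140) had 106 reads in leaf and 19 in root, 8.55-fold (95% interval 5.21 to 14.8) higher in leaf, and nitrite reductase NIR1 (AT2G15620) had 41 reads in leaf and 4 in root, 15.7-fold (95% interval 5.69 to 60.3) higher. Glutamine synthetase again split by isoform, the plastid GS2 (AT5G35630) with 38 reads in leaf and 0 in root and the cytosolic GSR 1 (AT5G37600) with 8 reads in leaf and 64 in root, and a family ratio of leaf to root of 0.943 (95% interval 0.679 to 1.30). The asparagine synthetase ASN1 had 42 reads in leaf and 26 in root.

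The methyl cycle, which makes and recycles S-adenosylmethionine, stood in leaf. Of 18 methionine and nicotianamine genes, 6 were called higher in leaf and 0 in root, with 816 reads in leaf and 401 in root, 3.12-fold (95% interval 2.76 to 3.52) higher in leaf. Methionine synthase ATMS1 (AT5G17920) had 230 reads in leaf and 67 in root, 5.26-fold (95% interval 3.99 to 7.01) higher in leaf. The S-adenosylmethionine synthetase MAT3 (AT2G36880) had 153 reads in leaf and 0 in root, at least 78.1-fold higher, from leaf isotigs aligned over 37.7% of the protein, and its homologue SAM-2 (AT4G01850) had 179 reads in leaf and 159 in root, 1.72-fold (95% interval 1.38 to 2.15) higher. Both hits together had 332 reads in leaf and 159 in root, 3.20-fold (95% interval 2.64 to 3.89) higher in leaf. SAM-2 turned to the opposite direction, with a log2 ratio of -1.12, when each isogroup contributed 1 isotig whatever gene its isotigs matched. The methyltransferase XPL1 (AT3G18000), which makes phosphocholine, had 170 reads in leaf and 21 in root, 12.4-fold (95% interval 7.86 to 20.6) higher in leaf.

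Phenylpropanoid and lignin genes gave 5 leaf calls and 0 root calls of 25 (20% in all, beside 11.3% over all genes). Their sum was 458 reads in leaf and 414 in root, 1.69-fold (95% interval 1.48 to 1.94) higher in leaf. Phenylalanine ammonia-lyase, the entry enzyme, had 31 reads in leaf and 7 in root for the hit PAL4 (AT3G10340), 6.78-fold (95% interval 2.93 to 18.3) higher in leaf. The hit PAL1 (AT2G37040) had 134 reads in leaf and 164 in root, a leaf to root ratio of 1.25 (95% interval 0.989 to 1.58), and did not pass the test. The laccase LAC17 (AT5G60020), which polymerises lignin, had 13 against 1. Class III peroxidases, the other lignin-polymerising enzymes, gave 3 root calls and 2 leaf calls of 18 (27.8% in all, beside 11.3% over all genes). The root calls were AT1G71695 with 0 reads in leaf and 104 in root, at least 22.6-fold higher in root, AT5G19890 with 0 against 57 and AT4G33420 with 0 against 44. The leaf calls were the short match PRX52 with 110 against 7 and AT5G06730 with 13 against 0. The list sum was 143 reads in leaf and 246 in root, a leaf to root ratio of 0.890 (95% interval 0.719 to 1.10).

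Cellulose and wall polysaccharide genes gave 5 leaf and 2 root calls of 37 (18.9% in all, beside 11.3% over all genes), with the cellulose synthases CESA6 (AT5G64740) at 22 against 0 and CESA2 (AT4G39350) at 0 against 26, and the xyloglucan synthase CSLC12 (AT4G07960) at 2 reads in leaf and 97 in root, 31.7-fold (95% interval 8.53 to 265) higher in root. None of 36 expansin, xyloglucan hydrolase and wall protein genes was called by the MARS model. Those genes had 146 reads in leaf and 197 in root in sum, a leaf to root ratio of 1.14 (95% interval 0.910 to 1.41). Cytoskeleton genes gave 1 leaf and 2 root calls of 25 (12% in all, beside 11.3% over all genes), about as often as other genes. The leaf call was TUA2 (AT1G50010) with 19 against 5. The root calls were TUB3 (AT5G62690) with 4 against 34 and the short match ARK3. Actin ACT7 had 80 reads in leaf and 113 in root and alpha-tubulin TUA6 (AT4G14960) 61 reads in leaf and 131 in root, and neither passed the test. All alpha-tubulins had 98 reads in leaf and 147 in root, a leaf to root ratio of 1.02 (95% interval 0.783 to 1.33), and all beta-tubulins had 15 reads in leaf and 68 in root, 2.96-fold (95% interval 1.67 to 5.58) higher in root.

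Central metabolism split gene by gene. Fermentation and glycolysis gave 6 leaf and 4 root calls of 30 (33.3% in all, beside 11.3% over all genes). Cytosolic glyceraldehyde-3-phosphate dehydrogenase GAPC2 (AT1G13440) had 48 reads in leaf and 242 in root, 3.29-fold (95% interval 2.41 to 4.59) higher in root, alcohol dehydrogenase ADH1 (AT1G77120) had 15 reads in leaf and 66 in root, 2.87-fold (95% interval 1.62 to 5.42) higher in root, and cytosolic malic enzyme NADP-ME1 (AT2G19900) had 39 reads in leaf and 132 in root, 2.21-fold (95% interval 1.54 to 3.25) higher in root. Among hexokinases, 2 were called in leaf, HXK1 (AT4G29130) with 38 against 15 and HXK2 (AT2G19860) with 26 against 2, while HXK3 had 0 against 12 and did not pass the test, and also called in leaf was phosphoenolpyruvate carboxykinase PCK1 (AT4G37870) with 34 against 5. Respiration gave 3 leaf calls and 1 root call of 26 (11.5% and 3.85%, beside 6.1% and 5.25% over all genes). The leaf calls were the aconitase ACO3 (AT2G05710) with 136 against 105, the cytosolic isocitrate dehydrogenase cICDH (AT1G65930) with 55 against 29 and the peroxisomal malate dehydrogenase PMDH2 (AT5G09660) with 47 against 16. The root call was the ADP/ATP carrier AAC3 (AT4G28390) with 4 against 30. The vacuolar malate carrier TDT (AT5G47560) had 54 reads in leaf and 9 in root, 9.19-fold (95% interval 4.50 to 21.2) higher in leaf.

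Transcription factors gave 14 leaf calls and 16 root calls of 278 with a read (5.04% and 5.76%, beside 6.1% and 5.25% over all genes), so they were called about as often as other genes. The clock factor LHY (AT1G01060) had 154 reads in leaf and 43 in root, 5.49-fold (95% interval 3.89 to 7.88) higher in leaf. Other leaf calls were the CONSTANS-like genes COL4 (AT5G24930) and COL1 (AT5G15850), with 40 against 0 and 24 against 1, the chloroplast regulator GPRI1 (GLK1) with 22 against 0 and the light-signalling factor PIF3 with 17 against 0. Root calls were MYB48 (AT3G46130) with 6 reads in leaf and 87 in root, 9.47-fold (95% interval 4.18 to 26.5) higher in root, MYB59 (AT5G59780) with 4 reads in leaf and 51 in root, the heat shock factors HSFA6B with 3 against 27 and AT-HSFB2B with 0 against 16, RAP2.2, a regulator of low-oxygen responses in Arabidopsis, with 11 against 75, and BZIP9 with 2 against 34.

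Senescence and protease genes gave 4 leaf and 5 root calls of 33 (27.3% in all, beside 11.3% over all genes). The leaf calls included the chlorophyll-degrading enzymes ACD1 (AT3G44880) with 23 against 0 and PPH (AT5G13800) with 31 against 1 and the autophagy gene ATG18G (AT1G03380) with 20 against 2. The root calls included the proteases RD21A (AT1G47128) with 2 against 49 and MC4 (AT1G79340), a metacaspase, with 5 against 40, besides SAG29. Defence proteins gave 3 leaf calls and 1 root call of 37 (10.8% in all, beside 11.3% over all genes), about as often as other genes. Among the leaf calls was the chitinase HCHIB (AT3G12500) with 28 against 0, and the root call was the germin-like GLP6 (AT5G39100) with 2 against 33. Of 40 proliferation genes, 3 were called higher in root and 0 in leaf (7.5% in all, beside 11.3% over all genes). These were the linker histone HIS1-3 (AT2G18050) with 2 against 51, which is drought-induced in Arabidopsis, the kinase CDKC;1 (AT5G10270) with 0 against 17, and the doubtful hit PCNA2. The list sum was 88 reads in leaf and 920 in root, and PCNA2 alone held 578 of those root reads.

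**Figure D3:**
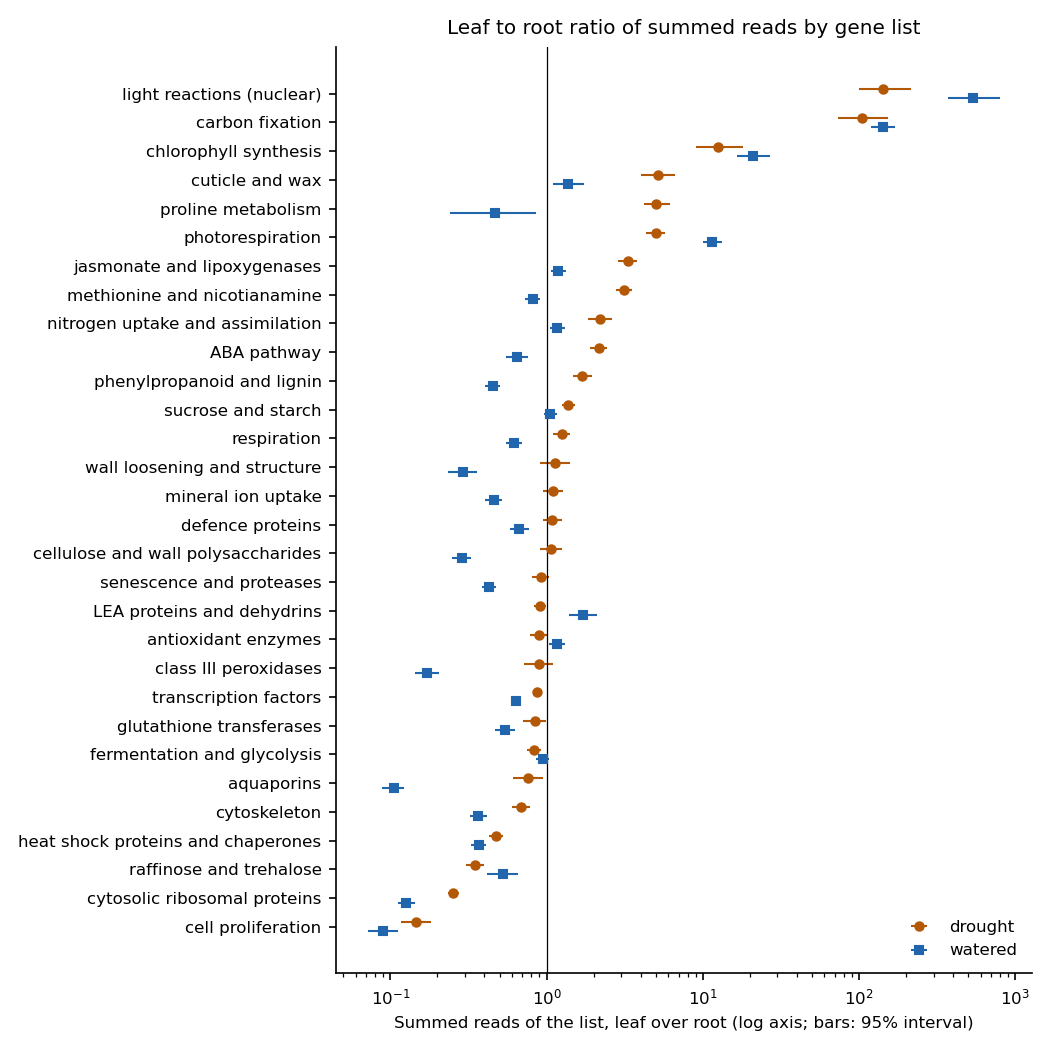
Summed reads of gene lists in leaf over root, on a log axis with exact 95% counting intervals, for drought-stressed (circles) and watered plants (squares). Photosynthesis lists lie far to the leaf side and ribosomal proteins on the root side in both. Cell proliferation also lies on the root side, but PCNA2, a hit in isogroups resembling ribosomal RNA, held 578 of its 920 root reads in drought. The ABA pathway and proline lists lie on the leaf side among stressed organs and on the root side among watered ones under the scaling by gene reads. With TMM factors the intervals of both watered ratios reached from 1 side to the other of equality.

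The organ contrast of the stressed plants was then set beside that of the watered plants. These contrasts have no library in common, but they share the organ assemblies and the best hits. A gene without an isotig in 1 organ's assembly had no read there in either contrast, which fixed its direction. Only 5498 of 10707 genes had an isotig in both assemblies, so the overlap and correlation below are partly fixed by the assemblies. Watered plants gave 636 genes called higher in leaf (6.35% of 10020) and 1015 higher in root (10.1%). This split rested on the scaling, since TMM factors of the 4 libraries, applied after the data had been seen, moved the watered median by 0.71 and gave 918 and 594. Among 576 genes called higher in stressed leaf and tested in both, 337 were also called higher in watered leaf (58.5%, and 53.7% of the 628 watered calls), and of 490 called higher in stressed root, 267 were called so in watered root (54.5%, and 27.2% of 980). Across 3005 genes with at least 10 reads in each contrast, the log2 ratios had a Pearson correlation of 0.795 and a Spearman correlation of 0.697, a description across genes, which are not independent replicates, and 73.9% of them had the same sign. Called higher in stressed leaf but higher in watered root were 15 genes by gene reads and 6 with TMM factors, and BGL2, CCoAOMT1, CSLD2, SNRK2.4, TDT and cICDH were so under both. The reverse was found for 1 gene by gene reads and 4 with TMM factors, under both for AT1G67280, a glyoxalase hit, with 30 reads in leaf and 88 in root in drought and 78 in leaf and 46 in root in watered plants.

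The change of the leaf to root ratio between watered and stressed plants was tested by dividing it by its counting error (a z test, with Poisson noise in each of 4 counts) over 4139 genes with at least 20 reads. The ratio was higher in drought for 231 genes (5.58%) and lower for 30 (0.725%) at a Benjamini-Hochberg adjusted p under 0.05. This split depended on the scaling, since with TMM factors, which move the median of all genes by -0.72, it was 75 and 71, so directions are given below only for single genes with their counts. P5CS1 had a difference of log2 ratios (drought minus watered) of 5.03 ± 1.35 (SE, counting error only) and an adjusted p of 0.0065 by the z test, with 6 watered reads in all behind it. TDT rose in this ratio by 5.18 ± 0.63 (adjusted p = 1.6e-13 by the z test), with 54 reads in leaf and 9 in root in drought against 18 in leaf and 99 in root in watered plants. Cytosolic isocitrate dehydrogenase cICDH rose by 4.16 ± 0.49 (adjusted p = 5.3e-14), and methionine synthase ATMS1 by 3.12 ± 0.28 (adjusted p = 1.6e-25), with reads of 80 in leaf and 174 in root in watered plants. PIP1;5 rose by 2.75 ± 0.35 (adjusted p = 2.1e-12) with fewer root reads in drought and an almost equal leaf count, as given above. The leaf to root ratio of DHAR2 was lower in drought, with a difference of -4.27 ± 0.71 (adjusted p = 5.1e-07), from 25 in leaf and 22 in root in watered plants to 6 against 130 in drought. CAT2 had -2.19 ± 0.32 (adjusted p = 3.3e-09), the sulfolipid synthase SQD2 (AT5G01220) -2.56 ± 0.54 (adjusted p = 0.00018) with 20 reads in leaf and 19 in root in drought and 215 in leaf and 29 in root in watered plants, and HEMA1 -2.53 ± 0.56 (adjusted p = 0.00055) with 290 in leaf and 13 in root in watered plants.

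**Figure D4:**
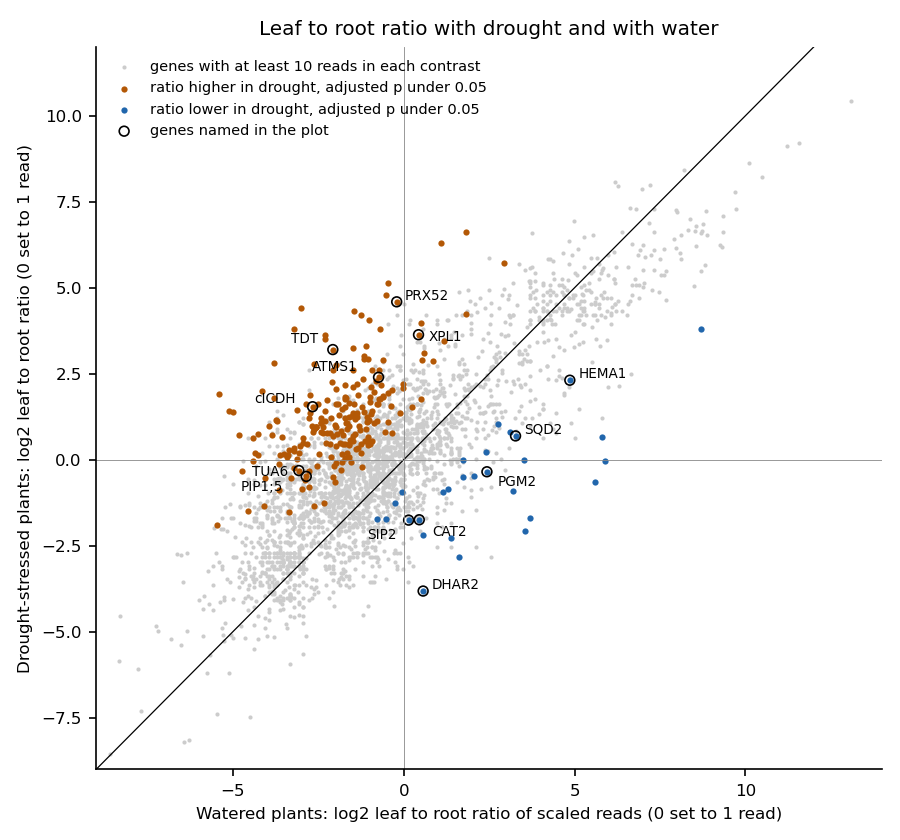
Log2 ratio of leaf to root of each gene in watered (x axis) and in drought-stressed plants (y axis) for genes with at least 10 reads in each contrast, with coloured points for genes whose ratio differed between the contrasts at an adjusted p under 0.05. TDT and PRX52 lie above the diagonal with DHAR2 and HEMA1 below it, and more of the coloured points lie above it than below under the scaling by gene reads.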

How the data were processed

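Leaf and root RNA of drought-stressed wheat (Triticum aestivum) was read by Roche pyrosequencing, 1 library for each organ and condition. The authors assembled the watered and stressed reads of each organ together, leaf and root apart, and deposited read counts per isotig and isogroup for each library, in which reads of shared stretches recur in several isotigs. The columns 'Normalized' hold RPKM values computed by the authors and were not used. Annotation tables that the authors deposited give each isotig's and unassembled read's best protein hit with its E-value, read here like a p-value and used only as a filter (at most 0.001). The deposited tables of log2 ratios, z-scores and p-values of drought against control and of gene ontology weights were not used.

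Drought read counts were summed per Arabidopsis best hit, with the isotig of most reads per isogroup and gene, and scaled by their sum. Contrasts used the MARS model of DEGseq, rewritten in Python 3.11.15 (numpy 2.4.6, scipy 1.17.1, pandas 2.3.3), with a count of 0 set to 1. The change of the leaf to root ratio between conditions was tested by a z test with Poisson noise in each of 4 counts, 0.5 added to each, on genes with at least 20 reads. edgeR 4.0.16 and DESeq2 1.42.0 (R 4.3.3) served for alternatives. The scripts were tested on simulated data. With Poisson noise, the MARS model called 38 of 50 genes changed 4-fold and 7 of 9458 unchanged genes. At a coefficient of variation of 0.2 it called 56 of 9458 unchanged genes. The z test of the change recovered 21 of 200 genes given a 4-fold difference, so genes that did not pass it are not shown to be unchanged. Depth, 62623 gene reads in leaf and 95919 in root, sets the precision, and intervals cover counting error only. Gene reads are not independent molecules where amplification copied them.

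The comparison and the 33 gene lists were chosen with earlier results of these data known, and the lists were widened to further family members, and cleaned of misplaced ones, after the files were seen, so their counts are descriptions read beside the counts over all genes. Genes were named by a rule: the 15 with the largest absolute z in each direction, the 5 with most reads in an organ among those absent from the other, per list and direction the 3 called members of largest absolute z, and the 10 with the largest absolute z of the difference in each direction (145 genes, of which 137 were called). Further list members, families and the genes called in opposite directions were named after their values were seen. Alternatives covered the test, scaling, filters, isotig choice, E-value, transcript length and match quality.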

Additional observations from a re-analysis of the deposited data

Results flagged for a closer look

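The leaf to root ratio of 20 genes differed most, by the z of the difference, between the drought-stressed and the watered plants, each with an adjusted p under 0.05 by the Poisson z test. The differences of log2 ratios (drought minus watered) were positive for TDT (5.18), PRX52 (4.70), cICDH (4.16), XPL1 (3.17), ATMS1 (3.12), PIP1;5 (2.75), TUA6 (2.36), ACO3 (2.28), UBQ1 (1.72) and PAL1 (1.65). They were negative for DHAR2 (-4.27), RSR4 (-3.41), PGM2 (-2.75), SQD2 (-2.56), HEMA1 (-2.53), TMT2 (-2.19), CAT2 (AT4G35090, -2.19), AT1G67280 (-2.06), SIP2 (-1.90) and EULS3 (-0.913).

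These values rest on 4 libraries without replicates. RSR4, a vitamin B6 synthesis hit, had 13 reads in leaf and 20 in root in drought and 53 in leaf and 6 in root in watered plants, PGM2, a cytosolic phosphoglucomutase, had 23 reads in leaf and 45 in root and 112 in leaf and 27 in root, and the tonoplast sugar carrier TMT2 had 24 reads in leaf and 52 in root and 81 in leaf and 32 in root. UBQ1, a ubiquitin fusion hit, had 139 reads in leaf and 224 in root in drought and 72 in leaf and 327 in root in watered plants, and its leaf isotigs aligned over 15.7% of the protein.

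SUS3, with 113 leaf reads and none in root isotigs in drought, had 6 unassembled root reads with the same best hit, the most of any gene called higher in leaf that had no root drought read. These single reads are not assigned here to the watered or the stressed root.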

How the results depend on the processing

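No paired analysis was possible because the labels give no replicate number and each group is 1 library, and no library could be left out. The 589 leaf and 507 root calls stayed within 1.5 times under the exact binomial test (647 and 464), TMM (595 and 492), DESeq2 factors (578 and 512) and 9 other settings. Allowing for a spread between plants gave 445 and 324 calls by edgeR's exact test at an assumed coefficient of variation of 0.2, and 204 and 94 at 0.4. Benjamini-Hochberg adjustment gave 428 and 301, scaling by isogroup reads 442 and 806, all isotigs 816 and 1008, a length offset 602 and 329, hits over at least 50% of the protein 359 and 258, and genes with isotigs in both assemblies 359 and 344. Scaling to chloroplast-encoded genes could not be run, since none was an Arabidopsis best hit. The last 2 settings test fewer genes, and for the others the cause was not tested.

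Of 137 called genes chosen by rule, 113 stayed called at the coefficient of 0.2 and 69 at 0.4, and 58 under all 20 alternatives that gave them a value. Among those lost at 0.2 were EULS3, LEA14, SAM-2, ADH1, NADP-ME1, SPS1F, HXK1, cICDH and ACO3. Log2 ratios reversed for CFIM-25 at E-values of at most 1e-20 (0.60), GUN1 without ribosomal RNA isogroups (4.59) and SAM-2 with 1 isotig per isogroup over all genes (-1.12). The change of the ratio between conditions rose for 231 and fell for 30 genes, for 75 and 71 with TMM, 136 and 37 without the 20 genes of most reads, 121 and 24 of 467 genes with at least 10 reads in each library, 65 and 5 with a coefficient of 0.2 added, 762 and 42 with all isotigs, and 156 and 21 with hits over at least 50% of the protein. EULS3 reversed in this difference with all isotigs (0.29), and 9 of the 20 genes no longer passed with the coefficient of 0.2 added, namely AT1G67280, CAT2, EULS3, HEMA1, PAL1, SIP2, SQD2, TMT2 and UBQ1. No gene under 10 reads was called.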

Other observations

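Chloroplast-encoded transcripts lay outside the genes compared, because their best hits were not Arabidopsis proteins. The photosystem II reaction centre gene psbA held 5703 reads in stressed leaf and 1 in stressed root, and the Rubisco large subunit gene rbcL held 1511 and 0, against 901 and 0 for the nuclear small subunit.

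Suberin and endodermis genes, among them the Casparian strip family, were read thinly in both organs, with 45 reads in leaf and 46 in root over 16 genes. They gave 1 leaf call (KCS2) and 0 root calls by the MARS model (6.25% in all, beside 11.3% over all genes). The xyloglucan enzymes XTH13 and XTH12 had 24 against 38 and 30 against 25 leaf and root reads in drought and 0 against 34 and 12 against 34 in watered plants. The alternative oxidase hit AOX1A had 23 reads in leaf and 38 in root in drought and 26 in leaf and 13 in root in watered plants, and neither XTH genes nor AOX1A were called in drought.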
